A study of Rattus norvegicus with 9 samples.

Results

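Neonatal cardiac fibroblasts were compared with fetal cardiac fibroblasts over all genes, using the 3 neonatal and the 3 fetal libraries, 6 of the 9 in the series. These libraries were chosen by their labelled age alone. Cardiac fibroblasts are the connective tissue cells of the heart that make and remodel its extracellular matrix. Both groups were cells isolated from hearts of Sprague Dawley rats, fetal hearts on embryonic day 18 and neonatal hearts on postnatal day 1, so the comparison spans birth. According to the labels, cells of both ages were at passage 0 (the first culture after isolation). They were grown to confluency in T75 flasks in DMEM with 10% fetal bovine serum, 0.1 mM ascorbic acid and 1% penicillin and streptomycin, and were then lysed in TRIzol. No sorting step, genetic change or drug treatment was named for either age, so each library measured the RNA of all cells in a flask. The 3 libraries from adults of 7 weeks entered the statistical model to share its estimate of the spread. They also took part in the filter that sets which genes are tested and in the scaling, and are not described.

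Around birth the rodent heart turns from growth by cell division to growth by enlargement of its muscle cells, while its load and oxygen supply rise. Fibroblasts of the heart derive mostly from the epicardium, the outer cell layer of the heart, through the transcription factor Tcf21. In culture with serum and ascorbic acid they divide, lay down collagen and take on features of myofibroblasts, contractile matrix-making cells with smooth muscle actin. Flasks of primary heart cells can also hold muscle, immune and vessel cells. In bulk libraries such as these, fewer cells of a type and less RNA per cell cannot be told apart.

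The fetal libraries held 16277129 to 22141173 assigned counts and the neonatal libraries 16241217 to 22850491. Fetal replicate 3 stood apart. Its distance to the other fetal libraries, as the straight-line distance over log2 levels of all tested genes, was 77.1 and 77.5, where fetal replicates 1 and 2 were 24.7 apart and neonatal pairs 23.5 to 26.2. It lay 110.2 to 111.3 from the neonatal libraries, farther than fetal replicates 1 and 2 (81.7 to 83.6). Of the 11337 tested genes it had a higher value than all other 5 libraries for 3843, a lower value for 3878, and a value between the other fetal and the neonatal libraries for 1354. Results are therefore given with and without it. The labels give no batch or date and do not say whether the 3 libraries of an age came from separate animals or cultures, so p-values measure the spread between these libraries, which may be technical.

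Levels below are CPM, counts scaled to a common library size, given for replicates 1, 2 and 3 in that order. A log2 fold change is neonatal minus fetal, so that 1 is a doubling at the neonatal age. Its standard error (SE) and its adjusted p come from edgeR's quasi-likelihood test, and a gene was called where the adjusted p was under 0.05. Where 2 values follow "against", they are the log2 fold change and adjusted p of the fit without fetal replicate 3. Of all genes tested, 4114 (36.3%) were called, 2074 higher (18.3%) and 2040 lower (18.0%) in the neonatal libraries. Without fetal replicate 3, 4679 of 11519 (40.6%) were called, 2419 higher (21.0%) and 2260 lower (19.6%). The calls were shared for 3803 genes, all in the same direction, while 311 genes were called only with fetal replicate 3 in the fit and 876 only once it was left out. At least 2-fold changes (1 or more on the log2 scale) were called for 657 genes higher and 615 lower, and at least 4-fold changes (2 or more) for 216 and 234. For 6502 genes, 57.4% of those tested, all neonatal libraries lay on one side of all fetal ones. The called genes were split almost evenly (50.4% higher) under this scaling, but with library size as the only scaling 29% were higher, the median log2 fold change of all genes moving from -0.0053 to -0.176. Small shifts of a list's median, near that size, are to be read against this.

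The largest increases at the neonatal age are described first. Akr1c14, a hydroxysteroid dehydrogenase that reduces steroid hormones, had fetal levels of 0.432, 0.573 and 0 and neonatal levels of 20.4, 19.5 and 21.2 CPM (log2 fold change 5.84, SE 0.4, adjusted p = 3.38e-05, against 5.3 and 9.95e-06). Cpxm2, which encodes a secreted protein of the carboxypeptidase family, had fetal levels of 1.84, 1.98 and 1.86 and neonatal levels of 34.3, 32.1 and 31.8 CPM (log2 fold change 4.1, SE 0.27, adjusted p = 2.27e-05, against 4.09 and 0.000688). Mnda, of the interferon-inducible nuclear protein family, had fetal levels of 6.59, 6.88 and 4.89 and neonatal levels of 88.3, 87.4 and 87.3 CPM (log2 fold change 3.83, SE 0.25, adjusted p = 2.26e-05, against 3.7 and 0.000361). In these 3 genes all neonatal libraries lay within a narrow range far above all fetal ones, fetal replicate 3 included. Sepp1, which encodes the plasma selenium carrier selenoprotein P, rose from 12.2, 13.2 and 8.55 to 121, 124 and 120.5 CPM (log2 fold change 3.43, adjusted p = 3.18e-05). The membrane transporter gene Abca8a rose from 4.32, 4.45 and 1.01 to 33.4, 34.5 and 36.3 CPM (3.4, adjusted p = 0.000301). Scn7a, a sodium-sensing relative of the voltage-gated sodium channels, rose from 2.32, 3.44 and 1.06 to 27.8, 33.8 and 32.95 CPM (3.76, adjusted p = 4.89e-05). For the last 2 genes fetal replicate 3 was the lowest of all 6 libraries. The lymphatic growth factor gene Figf (Vegfd) and the orphan receptor gene Mrgprf completed this group at 4.74 and 4.61.

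Mmp12 and Lyz2 were also among the 10 largest increases, but with a different pattern. Mmp12, the macrophage metalloelastase, was at fetal levels of 0.162, 0.0882 and 11.7 and neonatal levels of 72.3, 66.8 and 66.5 CPM, and Lyz2, a lysozyme of myeloid cells, at fetal levels of 1.24, 0.882 and 12.4 and neonatal levels of 65.2, 59.9 and 59.2 CPM. In both, fetal replicates 1 and 2 were near 0 and fetal replicate 3 lay between them and the neonatal libraries. Their log2 fold changes were 4.14 and 3.68 with fetal replicate 3 and 9.06 and 5.87 without it (adjusted p = 0.0139 and 0.00684, against 1.85e-09 and 4.94e-06).

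Among the 10 largest decreases, Mfap2, Igfbp5, Gldn and Tbx4 had a wide margin between each fetal and each neonatal library. Mfap2, a microfibril protein of elastic fibres, had fetal levels of 40.6, 34.9 and 33.5 and neonatal levels of 1.27, 0.929 and 0.971 CPM (log2 fold change -5.1, SE 0.22, adjusted p = 2.04e-06, against -5.15 and 1.84e-08). Igfbp5, a secreted binding protein for insulin-like growth factors, had fetal levels of 184, 182 and 112 and neonatal levels of 3.08, 3.39 and 2.78 CPM (log2 fold change -5.68, SE 0.28, adjusted p = 6.48e-06, against -5.88 and 5.1e-09). Gldn, which encodes gliomedin, an adhesion protein of Schwann cells, had fetal levels of 47.2, 46.5 and 84.3 and neonatal levels of 1.71, 1.16 and 1.88 CPM (log2 fold change -5.25, SE 0.3, adjusted p = 1.09e-05, against -4.91 and 5.07e-09). Tbx4, a limb and lung mesenchyme factor, had a log2 fold change of -5.86, against -5.7 without fetal replicate 3. The other falls were led by fetal replicate 3. Dhrs9, a retinol and steroid dehydrogenase, had fetal levels of 16.5, 17.8 and 76.8 and neonatal levels of 0.55, 0.744 and 0.712 CPM (log2 fold change -5.77, SE 0.74, adjusted p = 0.000685, against -4.66 and 2.98e-08). Mylpf, the fast skeletal muscle regulatory light chain, had fetal levels of 6.7, 7.23 and 64.5 and neonatal levels of 0.385, 0.558 and 0.518 CPM (log2 fold change -5.72, SE 1.07, adjusted p = 0.00415, against -3.81 and 6.83e-07). Cdhr1, a photoreceptor cadherin, had fetal levels of 5.35, 5.6 and 45.6 and neonatal levels of 0.275, 0.465 and 0.324 CPM (log2 fold change -5.68, SE 1.17, adjusted p = 0.0111, against -3.89 and 1.29e-05), and the cartilage collagen gene Col2a1 had fetal levels of 5.29, 5.82 and 38.3 and neonatal levels of 0.275, 0.325 and 0.0647 CPM (-6.09, against -4.53 without it). Leaving fetal replicate 3 out reduced the fold of each of these. That they stayed called follows from the selection, which took only genes called in both fits.

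**Figure D1:**
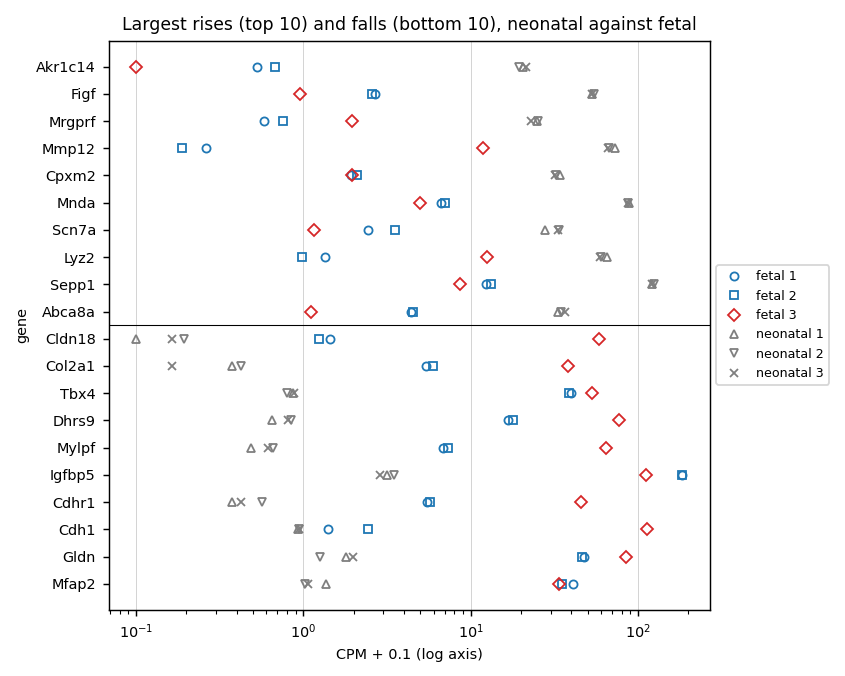
CPM plus 0.1 on a log axis for the 10 largest increases and the 10 largest decreases at the neonatal age, 1 point per library, with fetal replicate 3 marked apart. Neonatal points cluster tightly in most genes and spread more in Col2a1 and Cldn18, where they are near 0. Genes in which fetal replicate 3 leaves the other fetal points include Mmp12, Lyz2, Cldn18, Cdh1, Mylpf, Cdhr1, Col2a1 and Dhrs9.

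Matrix genes were among the abundant genes that rose. Col3a1, the collagen III chain, had fetal levels of 15890, 15730 and 7294 and neonatal levels of 29730, 31560 and 31120 CPM (log2 fold change 1.25, SE 0.26, adjusted p = 0.00647, against 0.96 and 1.82e-05). Sparc, a collagen-binding matricellular protein, had fetal levels of 8531, 8657 and 4587 and neonatal levels of 14200, 14270 and 14120 CPM (log2 fold change 0.97, SE 0.22, adjusted p = 0.00876). Bgn (biglycan), a small leucine-rich proteoglycan, had a log2 fold change of 1.21 (adjusted p = 0.00315). Ccdc80, a secreted matrix-binding protein, had fetal levels of 2659, 2772 and 956 and neonatal levels of 7550, 7593 and 7382 CPM (log2 fold change 1.82, SE 0.34, adjusted p = 0.0039). In each of these genes fetal replicate 3 was the lowest library, and the neonatal libraries stayed above fetal replicates 1 and 2 as well. Cytoskeletal genes were among the abundant genes that fell. Tpm1, a tropomyosin, had fetal levels of 3318, 3355 and 3694 and neonatal levels of 2575, 2527 and 2570 CPM (log2 fold change -0.43, SE 0.11, adjusted p = 0.0167) and Myh10, nonmuscle myosin IIB, -0.54 (adjusted p = 0.00975). The lipid desaturase gene Scd2 had fetal levels of 2896, 2985 and 3378 and neonatal levels of 2422, 2564 and 2500 CPM (log2 fold change -0.31, SE 0.094, adjusted p = 0.0315). The calls of Tpm1 and Scd2 were lost when any 1 neonatal library was left out, with adjusted p up to 0.070 and 0.126, and that of Scd2 also without fetal replicate 2 (0.0502).

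The fibroblast markers were present in all 6 libraries, and 9 of the 19 were called higher and 1 lower, with a median log2 fold change of 0.61 (10 higher, 1 lower and 0.67 without fetal replicate 3). The background for these counts, and for those of all lists below, is 18.3% higher and 18.0% lower (21.0% and 19.6% without fetal replicate 3). Tcf21 had fetal levels of 14.1, 14.4 and 6.91 and neonatal levels of 85.1, 88.5 and 84.7 CPM (log2 fold change 2.86, SE 0.35, adjusted p = 0.000545, against 2.59 and 0.00357). Thy1, a surface glycoprotein of fibroblasts, had fetal levels of 95.8, 91.6 and 43.3 and neonatal levels of 330.4, 318 and 315 CPM (log2 fold change 2.06, SE 0.26, adjusted p = 0.000668, against 1.78 and 4.14e-07). Pdgfrb, the PDGF receptor beta, had fetal levels of 988, 986 and 397 and neonatal levels of 2000, 2044 and 1973 CPM (log2 fold change 1.34, SE 0.29, adjusted p = 0.00794, against 1.02 and 1.26e-07). All 3 were higher in every neonatal library than in any fetal one, and lowest in fetal replicate 3. The collagen receptor gene Ddr2 (0.63, adjusted p = 0.00191) and Pi16, a marker of a reservoir population of fibroblasts (0.9, adjusted p = 0.000362), were also called higher. Dpt (dermatopontin) had fetal levels of 0.27, 0.353 and 3.83 and neonatal levels of 6.22, 5.67 and 6.21 CPM, with fetal replicate 3 closer to the neonatal libraries, and S100a4 had fetal levels of 294, 304 and 470 and neonatal levels of 572, 520.4 and 543 CPM. The call of Dpt (adjusted p = 0.0404) was lost without any 1 library other than fetal replicate 3 (up to 0.0977). That of S100a4 (0.0183) was lost without fetal replicate 1 or 2 or neonatal replicate 1 or 3 (up to 0.0616), and that of Fap, fibroblast activation protein (0.0267), without any 1 neonatal library (up to 0.0715). Mfap5 was called lower (-0.39, adjusted p = 0.00254).

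Several fibroblast markers were not called. Col1a1 had fetal levels of 32990, 30310 and 14800 and neonatal levels of 35600, 40030 and 37760 CPM (0.54, adjusted p = 0.148). Fn1 (fibronectin) had fetal levels of 25170, 26800 and 9724 and neonatal levels of 23920, 24980 and 23810 CPM (0.24, adjusted p = 0.58, turning to -0.099 without fetal replicate 3). Dcn (decorin) had fetal levels of 63.5, 67.9 and 19.1 and neonatal levels of 58.6, 58.6 and 57.3 CPM (0.21, adjusted p = 0.72, turning to -0.17). In all 3 fetal replicate 3 was far below the rest, while fetal replicates 1 and 2 lay near or among the neonatal libraries. Lum (lumican) had the same pattern, with fetal levels of 162, 164 and 46.01 and neonatal levels of 132, 133 and 125 CPM (0.07, adjusted p = 0.913, turning to -0.32). Vim (vimentin) had fetal levels of 3707, 3364 and 3945 and neonatal levels of 4211, 4197 and 4285 CPM, and was called without fetal replicate 3 alone (0.26, adjusted p = 0.0217). Gsn, Postn and Pdgfra were not called in either fit (adjusted p = 0.832, 0.147 and 0.174). The row of Col1a2 held under 1 CPM in all 6 libraries; its exons are placed on chromosome 4 from 29529854 to 31569152 in the rn6 annotation used for counting, and it was not read as the level of that collagen chain.

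Markers of other cell types were examined next, since primary cultures of the heart can carry several. Cardiomyocyte genes were present at both ages and lower in the neonatal libraries: 18 of 20 were called lower and 0 higher, with a median of -1.03 (19 lower and -1.07 without fetal replicate 3). Their summed level was 15080, 16210 and 11750 CPM in the fetal and 7235, 7467 and 7966 CPM in the neonatal libraries, without overlap. Tnni1, the slow skeletal troponin I of the fetal heart, had fetal levels of 227, 231 and 259 and neonatal levels of 74.9, 76.9 and 81.1 CPM (log2 fold change -1.62, SE 0.098, adjusted p = 1.09e-05, against -1.56 and 8.68e-08). Myl4, the atrial and fetal essential light chain, had fetal levels of 65.3, 61.6 and 119.5 and neonatal levels of 9.74, 10.04 and 9.32 CPM (log2 fold change -3.08, SE 0.28, adjusted p = 0.000103, against -2.71 and 1.05e-07), and Csrp3, a Z-disc protein, had a log2 fold change of -1.13 (adjusted p = 5.07e-05). Actc1, cardiac alpha-actin, had a log2 fold change of -1.11 (adjusted p = 0.00036), and the cardiac transcription factor Nkx2-5 had fetal levels of 16.3, 11.6 and 15.9 and neonatal levels of 3.69, 5.58 and 5.05 CPM (-1.61, adjusted p = 0.00183). Tnni3, the adult cardiac troponin I, had a log2 fold change of -0.37 (adjusted p = 0.0196, and up to 0.0929 without 1 of the libraries other than fetal replicate 3). The natriuretic peptide gene Nppa had fetal levels of 3685, 3833 and 1607 and neonatal levels of 1796, 1831 and 2008 CPM and was called without fetal replicate 3 only (adjusted p = 0.135, against 0.00172).

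Macrophage genes went the other way. Of 15 markers, 11 were called higher and 0 lower, with a median of 2.18, and 14 were called higher with a median of 3.81 without fetal replicate 3. Leaving out any 1 of the other 5 libraries left 7 called. Their summed level was 15.99, 15.4 and 78.4 CPM in the fetal libraries and 195, 177 and 178 CPM in the neonatal libraries. Fetal replicate 3 thus lay between fetal replicates 1 and 2 and the neonatal libraries. Csf1r, the receptor that macrophages need for survival, had fetal levels of 1.84, 2.16 and 14.9 and neonatal levels of 29.8, 27.8 and 27.1 CPM (log2 fold change 2.18, SE 0.64, adjusted p = 0.029, against 3.81 and 0.000121). Itgam, the integrin chain CD11b, had fetal levels of 0.486, 0.265 and 2.07 and neonatal levels of 7.38, 7.39 and 7.18 CPM (log2 fold change 3.0, SE 0.44, adjusted p = 0.00135, against 4.3 and 2.73e-08). Ptprc, the leukocyte antigen CD45, had fetal levels of 0, 0.0882 and 2.76 and neonatal levels of 7.38, 6.41 and 8.16 CPM (log2 fold change 2.99, SE 0.74, adjusted p = 0.0145, against 7.03 and 1.19e-07). Mrc1, the mannose receptor of resident macrophages, had fetal levels of 1.62, 1.24 and 7.6 and neonatal levels of 17.6, 15.5 and 14.8 CPM (2.22, adjusted p = 0.0105). The call of Csf1r was lost without any 1 of the other 5 libraries (adjusted p up to 0.0764). With the 6 libraries fitted alone, without adults, the calls of Csf1r and Ptprc were lost (adjusted p = 0.0585 and 0.0724). That of Ptprc was also lost with DESeq2 (adjusted p = 0.0776). Adgre1 was at 1.86 CPM or less in every library, and Cd163 had 0 counts in all 6 and was among the 15 tested through the adult libraries alone.

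Endothelial markers summed to 467, 457 and 329.6 CPM in the fetal and 647, 662 and 677 CPM in the neonatal libraries, and mural cell markers to 1509, 1516 and 720.1 and 2313, 2388 and 2369 CPM. Of 11 endothelial markers, 5 were called higher and 1 lower, with a median of 1.02. Of the genes that define endothelium, Pecam1 was not called, with fetal levels of 0.324, 0.573 and 1.01 and neonatal levels of 0.66, 0.697 and 0.971 CPM (0.27, adjusted p = 0.673). Cdh5 (VE-cadherin) rose within low levels, with fetal levels of 0.324, 0.176 and 0.266 and neonatal levels of 1.65, 1.21 and 1.88 CPM (log2 fold change 2.6, SE 0.42, adjusted p = 0.00176, against 2.64 and 0.00204). Tie1, an endothelial receptor, did likewise, with fetal levels of 0.486, 0.353 and 0.425 and neonatal levels of 1.6, 1.67 and 2.14 CPM (log2 fold change 2.08, SE 0.19, adjusted p = 8.86e-05, against 2.09 and 5.51e-05). The list's sum was carried by Eng (endoglin), fetal levels of 228, 224 and 133 and neonatal levels of 499, 513 and 529 CPM (log2 fold change 1.4, SE 0.18, adjusted p = 0.000586), and Flt1, fetal levels of 214, 209 and 166 and neonatal levels of 111, 108 and 107 CPM (log2 fold change -0.85, SE 0.094, adjusted p = 0.000246), which fibroblasts can also express. Of 8 mural cell markers, 3 were called higher and 0 lower (4 and 0 without fetal replicate 3), with a median of 1.05, among them Abcc9 (0.95, adjusted p = 0.00229). Myh11, the smooth muscle myosin heavy chain, had fetal levels of 304, 316 and 140.2 and neonatal levels of 521, 518 and 512 CPM (log2 fold change 1.03, SE 0.35, adjusted p = 0.0455), a call lost without fetal replicate 3 (0.131), without fetal replicate 1 (0.060) and without any 1 neonatal library (up to 0.108). The Schwann and neuronal list had 3 called higher and 4 lower of 11, or 2 to 3 and 2 to 4 when 1 library at a time was left out. In it Stmn2, a neuronal tubulin-binding protein, had fetal levels of 28.1, 25.8 and 44.9 and neonatal levels of 1.38, 0.929 and 1.17 CPM (log2 fold change -4.83, SE 0.32, adjusted p = 1.9e-05, against -4.55 and 7.93e-08). Mbp (myelin basic protein) had fetal levels of 2.38, 2.16 and 2.55 and neonatal levels of 11.8, 10.7 and 12.5 CPM (log2 fold change 2.31, SE 0.16, adjusted p = 2.27e-05, against 2.36 and 2.84e-06). No liver marker was abundant enough to be tested (summed level up to 1.12 CPM).

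Several marker lists set fetal replicate 3 apart, in both directions. Epithelial, lung epithelial and skeletal muscle sums were highest in it, as were the epicardial and the Schwann and neuronal sums. The fibroblast sum was lowest in it, at 80870, 79370 and 38460 CPM in the fetal and 98910, 106200 and 102300 CPM in the neonatal libraries. The endothelial and mural sums given above were lowest in it too. The cartilage and bone sum (1233, 1256 and 534 CPM in the fetal and 1098, 1142 and 1117 CPM in the neonatal libraries) and the lung mesenchymal sum (510.4, 528 and 281 and 588, 600.1 and 578 CPM) were lowest in it. The epithelial markers summed to 8.53, 10.4 and 257 CPM in the fetal and 3.91, 3.67 and 3.88 CPM in the neonatal libraries. Cdh1 (E-cadherin) had fetal levels of 1.3, 2.34 and 113 and neonatal levels of 0.826, 0.837 and 0.842 CPM (log2 fold change -5.53, SE 1.7, adjusted p = 0.0333, against -1.13 and 0.0347). Krt14 (keratin 14) had fetal levels of 3.08, 3.48 and 55.6 and neonatal levels of 1.27, 0.929 and 1.04 CPM (log2 fold change -4.26, SE 1.18, adjusted p = 0.0228, against -1.61 and 0.00293). The simple epithelial keratin gene Krt8, also found in mesothelium, had fetal levels of 10.2, 11.3 and 144 and neonatal levels of 2.92, 2.32 and 2.91 CPM (log2 fold change -4.34, SE 1.07, adjusted p = 0.0143, against -1.99 and 1.58e-05). The calls of Cdh1, Krt14 and Krt8 were lost when any 1 neonatal library was left out, at adjusted p up to 0.108, 0.084 and 0.061. That of Cdh1 was also lost with the 6 libraries alone (0.0647), voom quality weights (0.0599), a replicate block (0.0633) and no filter on low counts (0.0559). Epcam (47.0 CPM), Cldn4 (15.9 CPM) and Cldn7 (9.03 CPM) of fetal replicate 3 stood against at most 0.702 CPM elsewhere and were too low in the other libraries to be tested. Krt19, in contrast, was even across the fetal libraries and low in the neonatal ones, with fetal levels of 27.4, 24.4 and 23.6 and neonatal levels of 3.3, 2.79 and 3.5 CPM (log2 fold change -2.98, SE 0.24, adjusted p = 5.3e-05, against -3.02 and 7.32e-07).

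The lung epithelial markers summed to 6.0, 6.39 and 103 CPM in the fetal and 3.52, 4.14 and 4.4 CPM in the neonatal libraries, and 1 was called higher and 1 lower of 3. The called higher one, Napsa (napsin A), had 0 counts in all fetal libraries and 0.055, 0.232 and 0.453 CPM in the neonatal ones (adjusted p = 0.0162). Its rise was at least 1.63-fold, and it passed the filter only through the adult libraries. The lung and thyroid factor Nkx2-1 had 0.108, 0.132 and 9.83 CPM in the fetal libraries and 0 in all neonatal ones, and the club cell secretoglobin Scgb1a1 0.162, 0.265 and 12.96 CPM in the fetal libraries. Cldn18, a tight junction gene of lung and stomach, had fetal levels of 1.35, 1.15 and 58.5 and neonatal levels of 0, 0.0929 and 0.0647 CPM. All neonatal libraries of Cldn18 were at or under the floor of 3 counts, so its mean, carried by fetal replicate 3, was at least 122-fold lower at the neonatal age, or 7.51-fold without that library (adjusted p = 0.0371, 0.000784 without fetal replicate 3, and up to 0.117 without 1 neonatal library). Of 4 lung mesenchymal markers tested, 1 was called higher and 2 lower (2 and 2 without fetal replicate 3). Fgf10 was the one called higher (1.56, adjusted p = 0.0015), and Tbx4 and Tbx5 were called lower. Tbx5, shared by heart and lung mesenchyme, had fetal levels of 11.7, 10.8 and 15.9 and neonatal levels of 1.76, 1.21 and 1.62 CPM (log2 fold change -3.07, SE 0.24, adjusted p = 4.41e-05) and was thus lower at the neonatal age in all libraries. Skeletal muscle markers summed to 46.8, 51.5 and 177 CPM in the fetal and 12.2, 11.8 and 13.7 CPM in the neonatal libraries. Myog, the myogenic factor myogenin, had fetal levels of 4.0, 2.82 and 22.6 and neonatal levels of 0, 0 and 0.0647 CPM, at least 58.95-fold lower in the neonatal libraries, or 20.5-fold without fetal replicate 3 (adjusted p = 0.00202). Myh3, embryonic myosin, had fetal levels of 23.4, 25.97 and 104 and neonatal levels of 3.19, 3.3 and 2.91 CPM (log2 fold change -4.01, SE 0.61, adjusted p = 0.0016, against -2.97 and 1.68e-07). Of 13 cartilage and bone markers, 1 was called higher and 3 lower (3 and 6 without fetal replicate 3, and 1 and 1 without 1 neonatal library). The part of epithelial, lung and muscle cells in the results of fetal replicate 3 was not tested beyond leaving that library out.

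**Figure D2:**
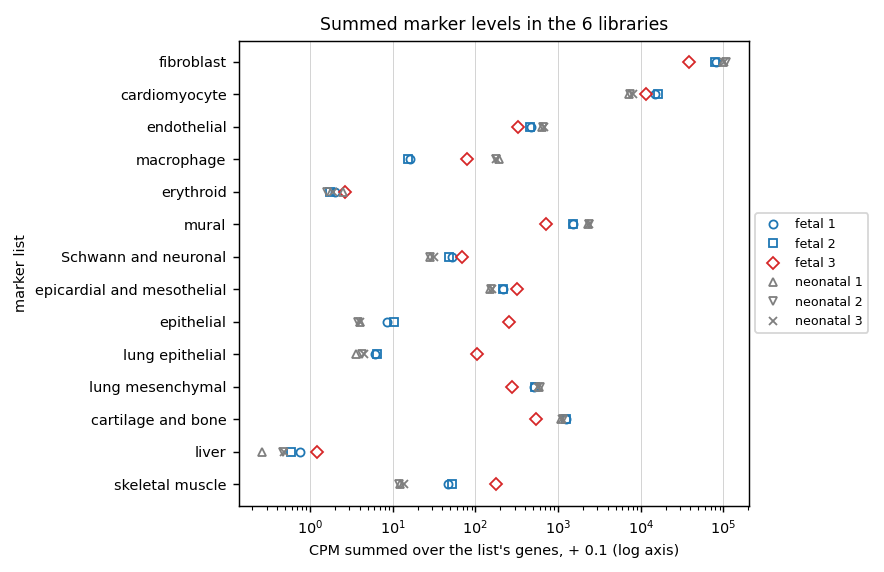
Summed CPM (plus 0.1) of the marker genes of each cell type on a log axis, 1 point per library, with fetal replicate 3 marked apart. Cardiomyocyte sums are lower in the 3 neonatal libraries and macrophage sums higher. Lists for which fetal replicate 3 is the highest library include epithelial, lung epithelial and skeletal muscle markers. Those for which it is the lowest include fibroblast, endothelial, mural, cartilage and bone and lung mesenchymal markers.

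The collagens were the first matrix group. Of 10 fibrillar collagen genes, 2 were called higher and 2 lower (2 and 2 without fetal replicate 3), with a median of 0.18. Besides Col3a1, Col5a3, a minor collagen V chain, was called higher, with fetal levels of 85.6, 84.8 and 105 and neonatal levels of 179, 201 and 199.6 CPM (log2 fold change 1.07, SE 0.22, adjusted p = 0.00678, against 1.18 and 0.0208). Col27a1, a collagen of cartilage and developing tissues, was called lower, with fetal levels of 50.5, 54.2 and 49.7 and neonatal levels of 27.5, 31.3 and 30.6 CPM (log2 fold change -0.79, SE 0.079, adjusted p = 0.000146, against -0.81 and 1.99e-05). Col5a1 and Col5a2 were not called (adjusted p = 0.542 and 0.0725). Of 14 non-fibrillar collagen genes, 5 were called higher and 3 lower. Col6a2, of the microfibrillar collagen VI, had fetal levels of 495, 466 and 477 and neonatal levels of 1363, 1451 and 1471 CPM (log2 fold change 1.57, SE 0.13, adjusted p = 5.87e-05, against 1.57 and 0.000124). Col15a1, a basement membrane zone collagen, had fetal levels of 18.8, 16.7 and 25.8 and neonatal levels of 64.2, 64.6 and 66.4 CPM (log2 fold change 1.68, SE 0.14, adjusted p = 5.38e-05, against 1.88 and 2.73e-08).

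Within collagen IV, the network collagen of basement membranes, the chains moved apart. Col4a1 had fetal levels of 7659, 7722 and 4363 and neonatal levels of 13180, 13930 and 13890 CPM (log2 fold change 1.05, SE 0.19, adjusted p = 0.00332). Col4a4 had fetal levels of 14.3, 16.3 and 19.4 and neonatal levels of 4.02, 4.09 and 3.37 CPM (log2 fold change -2.12, SE 0.17, adjusted p = 4.93e-05, against -1.99 and 2.61e-06) and Col4a3 had fetal levels of 22.4, 24.8 and 16.5 and neonatal levels of 9.41, 10.7 and 12.3 CPM (-0.98, adjusted p = 0.00249), both higher in every fetal library. Thus the widespread alpha-1 chain was higher, and the alpha-3 and alpha-4 chains of specialised membranes lower, at the neonatal age. Col17a1, a hemidesmosome collagen, was low throughout but rose from 0.81, 1.1 and 1.01 to 4.73, 4.37 and 4.6 CPM (2.21, adjusted p = 6.33e-05).

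Enzymes that process and cross-link collagen moved in both directions. Of 24, 9 were called higher and 3 lower (12 and 6 without fetal replicate 3, 7 and 5 with library size alone, and 5 higher without any 1 neonatal library). Bmp1, the procollagen C-proteinase, had fetal levels of 164, 164 and 102 and neonatal levels of 279.8, 285 and 290.1 CPM (log2 fold change 0.99, SE 0.16, adjusted p = 0.00179). Its enhancer gene Pcolce had fetal levels of 1036, 999.9 and 521 and neonatal levels of 1786, 1814 and 1866 CPM (log2 fold change 1.1, SE 0.22, adjusted p = 0.00509). Adamts2, the procollagen N-proteinase, had a log2 fold change of 1.34 (adjusted p = 0.00276). Plod1, a lysyl hydroxylase, had a log2 fold change of 1.14 (adjusted p = 0.00206). All 4 were lowest in fetal replicate 3 and higher in each neonatal library than in fetal replicates 1 and 2. The cross-linking enzyme Lox went down, with fetal levels of 367, 373 and 344 and neonatal levels of 200.5, 205 and 187 CPM (log2 fold change -0.87, SE 0.11, adjusted p = 0.000521, against -0.9 and 0.000287), and so did its relative Loxl4 (-0.86, adjusted p = 0.00368).

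Basement membrane glycoprotein genes were split, 5 called higher and 4 lower of 12 (5 and 2 to 5 without 1 library). The laminin chain genes Lama4, Lamb2 and Lamc1, which together form a laminin of vessels and muscle, were higher. Lama4 had a log2 fold change of 0.82 (adjusted p = 0.00158), Lamb2 0.86 (adjusted p = 0.00221) and Lamc1 0.98 (adjusted p = 0.0024). Nid2, a linker between laminin and collagen IV, was lower (-1.44, adjusted p = 1.32e-05). Frem2, of a complex that anchors embryonic basement membranes, had a log2 fold change of -1.66 (adjusted p = 0.00318), whereas the related Frem1 rose (1.43, adjusted p = 0.0141).

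Matricellular and adhesive glycoproteins, which signal to cells rather than bear load, had 4 called higher and 4 lower of 21 (8 and 5 without fetal replicate 3, and 4 to 8 and 2 to 5 over all choices of 1 library left out). With all libraries these counts were near the shares over all genes (18.3% higher and 18.0% lower). The CCN family moved apart. Wisp1 (Ccn4) had fetal levels of 161, 156 and 173 and neonatal levels of 35.8, 37.9 and 30.4 CPM (log2 fold change -2.23, SE 0.11, adjusted p = 3.94e-06, against -2.18 and 4.01e-08). Wisp2 (Ccn5) had fetal levels of 168, 155 and 38.6 and neonatal levels of 743, 748 and 745 CPM (log2 fold change 2.63, SE 0.45, adjusted p = 0.0028, against 2.21 and 2.79e-08). Wisp1 was thus lower and Wisp2 higher in every neonatal library. Nov (Ccn3) had fetal levels of 578, 576 and 76.03 and neonatal levels of 1241, 1253 and 1229 CPM, called without fetal replicate 3 only (1.6, adjusted p = 0.06, against 1.11 and 1.08e-07). Ctgf (Ccn2) and Cyr61 (Ccn1), the abundant members, had adjusted p of 0.0518 and 0.086 with fetal replicate 3 and 0.00955 and 0.139 without it. Tnc, the anti-adhesive protein tenascin-C of developing and healing tissue, had fetal levels of 3009, 3002 and 1925 and neonatal levels of 796, 821 and 790.1 CPM (log2 fold change -1.72, SE 0.16, adjusted p = 0.00011, against -1.91 and 1.33e-08). Igfbp7 had a log2 fold change of 1.5 (adjusted p = 0.00205).

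Of 13 elastic fibre genes, 1 was called higher and 4 lower (3 and 5 without fetal replicate 3). Beside Mfap2, Fbn2, the fibrillin of fetal microfibrils, had fetal levels of 187, 186 and 139 and neonatal levels of 39.2, 39.3 and 37.8 CPM (log2 fold change -2.14, SE 0.37, adjusted p = 0.00303, against -2.27 and 0.00465). Fbn1, the fibrillin of mature microfibrils, had fetal levels of 2543, 2556 and 1085 and neonatal levels of 3303, 3401 and 3206 CPM, called without fetal replicate 3 only (0.0799, against 0.00127). Ltbp1, a latent TGF-beta binding protein of microfibrils, had a log2 fold change of -1.27 (adjusted p = 0.00201), and Efemp2 (fibulin-4), needed for elastin assembly, 0.67 (adjusted p = 0.00618). Eln (elastin) itself had fetal levels of 3832, 3530 and 226 and neonatal levels of 3430, 3680 and 3734 CPM and was not called (0.611, and 0.865 without fetal replicate 3). Fbln5 (fibulin-5) had fetal levels of 1381, 1329 and 230 and neonatal levels of 688, 716 and 711 CPM, so that it was lower at the neonatal age once fetal replicate 3, the lowest library, was left out (-0.94, adjusted p = 4.71e-07).

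Proteoglycan genes had 5 called higher and 3 lower of 21 (5 to 7 and 1 to 4 without 1 library, 5 and 5 with library size alone), with a median of 0.0079. With all libraries these counts were near the shares over all genes (18.3% higher and 18.0% lower). Prelp, a small leucine-rich proteoglycan that anchors to basement membranes, had fetal levels of 9.4, 9.04 and 8.45 and neonatal levels of 47.8, 49.7 and 42.5 CPM (log2 fold change 2.38, SE 0.29, adjusted p = 0.000577, against 2.34 and 0.00874). The cell surface syndecan genes Sdc3 (0.95, adjusted p = 0.000456) and Sdc2 (1.02, adjusted p = 0.0043) were also higher. Hapln1, a link protein of hyaluronan aggregates, was low and highest in fetal replicate 3 (fetal levels of 0.918, 0.882 and 4.94 and neonatal levels of 0.22, 0.139 and 0.259 CPM); its call (0.024) was lost at up to 0.089 without 1 neonatal library.

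Of 27 genes for matrix proteases and their inhibitors, 11 were called higher and 6 lower (11 and 8 without fetal replicate 3, and 6 or 7 higher and as few as 3 lower without 1 neonatal library). Mmp14, a membrane-bound collagenase, had fetal levels of 598, 584 and 428 and neonatal levels of 1190, 1205 and 1172 CPM (log2 fold change 1.15, SE 0.12, adjusted p = 0.000181, against 1.01 and 1.78e-07). Timp2, an inhibitor of matrix metalloproteases, had fetal levels of 335, 329.7 and 259 and neonatal levels of 718, 695 and 694 CPM (log2 fold change 1.19, SE 0.11, adjusted p = 9.1e-05, against 1.08 and 6.69e-07). Mmp19 had a log2 fold change of 1.02 (adjusted p = 0.000649). These 3 were higher in every neonatal library and lowest in fetal replicate 3. In the other direction Mmp16 had a log2 fold change of -1.06 (adjusted p = 0.00135), Timp3, a matrix-bound inhibitor, -0.92 (adjusted p = 0.00394), and Plaur, the urokinase receptor, -0.82 (adjusted p = 0.00934).

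Contractile genes had no common direction, with 4 called higher and 5 lower of 22 and a median of 0.066 (2 and 6 without fetal replicate 3, 2 and 7 with library size alone, and 1 higher without any 1 neonatal library). With all libraries these counts were near the shares over all genes (18.3% higher and 18.0% lower). Smooth muscle alpha-actin, Acta2, had fetal levels of 8215, 7992 and 5350 and neonatal levels of 10190, 9812 and 9696 CPM and was not called (0.152). Actg2, enteric smooth muscle actin, was lower (-2.0, against -2.13 without fetal replicate 3). Des, the muscle intermediate filament desmin, had a log2 fold change of -0.72 (adjusted p = 0.00105). Myocd, the co-activator myocardin, had fetal levels of 40.6, 45.1 and 26.7 and neonatal levels of 18.9, 18.6 and 15.5 CPM (log2 fold change -1.08, SE 0.19, adjusted p = 0.00296). Vcl (vinculin), of focal adhesions, had a log2 fold change of 0.51 (adjusted p = 0.0129). Lmod1 (leiomodin) had fetal levels of 112, 114 and 54.9 and neonatal levels of 222, 217 and 217 CPM (log2 fold change 1.23, SE 0.32, adjusted p = 0.0181, and 0.0517 without fetal replicate 3 and up to 0.0544 without 1 neonatal library). Cardiac muscle expresses Des, Myocd and Actg2's relative Actc1 as well, and cardiomyocyte markers were lower in the same libraries; their part in these falls was not tested.

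Cell cycle genes were called lower more often than higher at the neonatal age. Of 40 genes of DNA replication and S phase, 22 were called lower and 0 higher, with a median of -0.45 (20 lower, 1 higher and -0.28 without fetal replicate 3). Of 34 genes of mitosis, 18 were called lower and 0 higher, with a median of -0.63 (16 lower and -0.32 without it, 28 lower with library size alone). Leaving out neonatal replicate 1, 2 or 3 left 10, 9 and 7 S phase genes and 6 mitosis genes each time. The summed level of the mitosis genes was 2430, 2481 and 3848 CPM in the fetal and 2017, 2001 and 2007 CPM in the neonatal libraries, and that of the S phase genes 1904, 1881 and 2527 and 1546, 1512 and 1519 CPM. Fetal replicate 3 had the highest sum in both lists, and the other fetal libraries also lay above all neonatal ones.

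Promoters of these genes are shown because many of the mitosis genes carry the cell cycle homology region (CHR). It is the short element TTTGAA, bound by the complex that switches late cell cycle genes on and off. In RefSeq's promoter table (assembly GRCr8, 250 bases before the start), the CHR letters were present on either strand in 14 of 27 mitosis genes (51.9%), against 16.2% of all 33469 promoters. The S phase genes held the E2F letters TTCCCGC in 8 of 30 promoters (26.7%), against 3.36% of all. The list shares cover tested genes with a single promoter, whereas all promoters include those of untested genes. The shares are thus not like for like. Such a match describes the sequence and shows no binding. Mitosis genes with the CHR letters included both called and uncalled genes, and so did S phase genes with the E2F letters. Whether genes with the letters changed more than the rest was not tested, and the promoters shown are of called genes. In the following the CHR letters, or TTCAAA where they lie on the other strand, are in capitals in 120 bases before the start, 5′ to 3′.
Birc5 (chr10:103572026-103572145, plus strand): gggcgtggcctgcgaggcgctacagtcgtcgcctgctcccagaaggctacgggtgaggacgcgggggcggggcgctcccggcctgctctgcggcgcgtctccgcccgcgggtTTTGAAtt
Cdc20 (chr5:137255800-137255919, minus strand): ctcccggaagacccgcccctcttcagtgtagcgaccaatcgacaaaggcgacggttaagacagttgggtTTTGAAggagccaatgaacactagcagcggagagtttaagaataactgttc
Top2a (chr10:84473094-84473213, minus strand): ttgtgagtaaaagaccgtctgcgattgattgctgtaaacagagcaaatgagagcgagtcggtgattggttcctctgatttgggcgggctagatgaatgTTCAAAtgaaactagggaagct

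Birc5 (survivin), of the chromosomal passenger complex, had fetal levels of 25.1, 22.8 and 35.97 and neonatal levels of 14.9, 16.5 and 15.3 CPM (log2 fold change -0.84, SE 0.16, adjusted p = 0.00434, against -0.62 and 0.000623). Cdc20, an activator of the anaphase-promoting complex, had fetal levels of 92.6, 81.5 and 111 and neonatal levels of 59.6, 60.8 and 60.8 CPM (log2 fold change -0.65, SE 0.14, adjusted p = 0.00623, against -0.53 and 0.00649). Top2a, topoisomerase II, had fetal levels of 166, 178 and 291 and neonatal levels of 132, 138 and 138 CPM (log2 fold change -0.64, SE 0.19, adjusted p = 0.028, against -0.34 and 0.00316). For all 3 the order was the same: fetal replicate 3 highest, then fetal replicates 1 and 2, then all neonatal libraries. The call of Top2a was lost without any 1 neonatal library (adjusted p up to 0.0904). Plk1, a mitotic kinase, had a log2 fold change of -0.63 (adjusted p = 0.00526). Of the S phase genes, Dut, which keeps uracil out of DNA, had fetal levels of 22.1, 20.6 and 31.4 and neonatal levels of 8.81, 9.53 and 10.8 CPM (log2 fold change -1.35, SE 0.2, adjusted p = 0.00106, against -1.14 and 0.000155). Uhrf1, which maintains DNA methylation through replication, had fetal levels of 64.98, 64.6 and 90.5 and neonatal levels of 41.7, 43.96 and 41.6 CPM (log2 fold change -0.79, SE 0.15, adjusted p = 0.00412, against -0.61 and 0.00107), and Mcm2, of the replicative helicase, was lower as well (-0.46, adjusted p = 0.00319).

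Inhibitors of the cycle and p53 targets were not uniformly higher. Of 21, 5 were called higher and 6 lower (3 to 6 and 5 to 8 without 1 library, 3 and 11 with library size alone, 6 and 8 without fetal replicate 3). Mdm2, the p53 target that degrades p53, had fetal levels of 179.6, 194 and 182 and neonatal levels of 95.2, 93.1 and 92.2 CPM (log2 fold change -0.99, SE 0.059, adjusted p = 1.09e-05, against -1.0 and 2.84e-07). Cdkn2b, the kinase inhibitor p15, had fetal levels of 149.5, 148 and 164 and neonatal levels of 82.8, 81.8 and 85.5 CPM (log2 fold change -0.88, SE 0.069, adjusted p = 4.34e-05, against -0.83 and 1.83e-06). Btg2, an antiproliferative p53 target, had a log2 fold change of -1.8 (adjusted p = 0.00167), and the p53 target Cdkn1a (p21) had fetal levels of 226, 203 and 122 and neonatal levels of 126, 119 and 121 CPM (log2 fold change -0.59, SE 0.19, adjusted p = 0.0375). These 4 were lower in the neonatal libraries, except that fetal replicate 3 lay at the neonatal level for Cdkn1a, whose call was lost without any 1 of the other libraries (adjusted p up to 0.109). The pocket protein genes Rbl2 (p130) and Rb1, which hold E2F factors in check, were higher, with a log2 fold change of 0.91 (adjusted p = 0.000415) and 0.76 (adjusted p = 0.000523).

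Imprinted genes, expressed from 1 parental copy and many of them regulators of fetal growth, had 1 called higher and 12 lower of 19, with a median of -1.18 (13 lower and -1.05 without fetal replicate 3). H19, Plagl1 and Igf2, with log2 fold changes of -3.45, -3.81 and -3.29, were accompanied by genes at other imprinted loci. Peg3 had fetal levels of 166, 174 and 216 and neonatal levels of 79.9, 87.3 and 78.1 CPM (log2 fold change -1.18, SE 0.12, adjusted p = 0.000142, against -1.05 and 3.43e-06). Dlk1, a membrane ligand of the Notch family, had fetal levels of 15.2, 11.3 and 53.1 and neonatal levels of 1.65, 1.63 and 1.62 CPM (log2 fold change -4.01, SE 0.6, adjusted p = 0.00153, against -3.01 and 8.49e-07). Mest had a log2 fold change of -1.96 (adjusted p = 0.00193). Nnat (neuronatin) had fetal levels of 29.5, 28.6 and 64.8 and neonatal levels of 7.93, 8.6 and 8.09 CPM (log2 fold change -2.32, SE 0.3, adjusted p = 0.000664, against -1.82 and 1.78e-07), and the growth-restraining cell cycle inhibitor gene Cdkn1c (p57) had fetal levels of 5.78, 5.07 and 14.98 and neonatal levels of 0.881, 1.49 and 1.1 CPM (log2 fold change -2.87, SE 0.66, adjusted p = 0.00982). All neonatal libraries were below all fetal ones in these genes, and fetal replicate 3 was the highest. Slc38a4, an imprinted amino acid transporter, was also lower but with fetal replicate 3 lowest of the fetal libraries (-1.2, adjusted p = 0.00157). The exception in direction was Sgce, a sarcoglycan, with fetal levels of 97.4, 98.7 and 73.6 and neonatal levels of 138, 136 and 146 CPM (0.64, adjusted p = 0.008). Igf2r was not called with fetal replicate 3 (0.111, against 0.0198 without it).

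Fetal RNA-binding proteins and HMGA factors moved with them, 5 of 6 called lower and 0 higher. Hmga2, a chromatin protein of embryonic mesenchyme, had fetal levels of 15.7, 13.7 and 42.5 and neonatal levels of 1.16, 1.44 and 0.906 CPM (log2 fold change -4.33, SE 0.51, adjusted p = 0.000383, against -3.62 and 6.97e-07). Hmga1 had fetal levels of 69.2, 59.7 and 170.2 and neonatal levels of 17.6, 17.7 and 19.4 CPM (log2 fold change -2.45, SE 0.37, adjusted p = 0.00152, against -1.82 and 1.7e-07). Igf2bp1 and Igf2bp2, which bind the Igf2 messenger, had a log2 fold change of -2.2 (adjusted p = 0.000545) and -0.99 (adjusted p = 0.000171). Arid3a had a log2 fold change of -1.76 (adjusted p = 0.00102). In the insulin-like growth factor system 3 genes were called higher and 7 lower of 16. The binding proteins split: Igfbp2 had fetal levels of 18.4, 15.1 and 35.5 and neonatal levels of 3.91, 4.09 and 4.14 CPM (log2 fold change -2.5, SE 0.31, adjusted p = 0.000456) and fell like Igfbp5, whereas Igfbp6 had a log2 fold change of 1.67 (adjusted p = 0.000426) and rose like Igfbp7. Pappa, a protease that cleaves binding proteins, had a log2 fold change of -1.49 (adjusted p = 0.00617). The ligand Igf1 and the receptor Igf1r were not called (0.138 and 0.15).

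Of 35 transcription factors of the heart and mesoderm, 9 were called higher and 14 lower (10 and 16 without fetal replicate 3). Tcf21 was described above. Tbx18 had a log2 fold change of 1.4 (adjusted p = 0.00158). Prrx1 had fetal levels of 30.1, 31.2 and 43.1 and neonatal levels of 112, 111 and 106 CPM (log2 fold change 1.66, SE 0.17, adjusted p = 0.000178, against 1.84 and 2.35e-05). Zeb2 had a log2 fold change of 1.23 (adjusted p = 0.000301). Tbx20, of the developing heart wall, had a log2 fold change of 0.89 (adjusted p = 0.00373). Tbx3, of the conduction system, had fetal levels of 18.1, 15.2 and 27.7 and neonatal levels of 1.93, 2.23 and 2.14 CPM (log2 fold change -3.27, SE 0.35, adjusted p = 0.000191, against -2.98 and 1.04e-05). Tbx2 had fetal levels of 15.6, 11.8 and 13.7 and neonatal levels of 4.24, 4.42 and 4.79 CPM (log2 fold change -1.61, SE 0.21, adjusted p = 0.000548, against -1.6 and 9.81e-05). Irx4, a ventricular muscle factor, had a log2 fold change of -1.43 (adjusted p = 0.000518), Gata5 -1.92 (adjusted p = 0.000452) and Meis1 -0.97 (adjusted p = 4.94e-05). Prrx2, the paralogue of Prrx1, was lower (-1.6, adjusted p = 0.00452), so the pair moved apart. Nkx2-5, Irx4 and Tbx5 are also expressed in cardiomyocytes, whose marker sum fell in the same libraries; that share was not tested.

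Hox genes record position along the body axis. Of 25 in the count table, 8 were abundant enough to be tested. Of these, 7 were called lower and 0 higher (7 and 1 without fetal replicate 3). Their median was -4.25, or -3.31 where genes at or under 3 counts in a group are taken at their bound. Genes near 0 in the neonatal libraries could pass the filter only through another age. The counts and median therefore describe these 8 genes, not the Hox genes as a group. They are listed by their position in the cluster. Hoxb3 had fetal levels of 9.72, 7.5 and 8.08 and neonatal levels of 1.21, 1.21 and 1.81 CPM (log2 fold change -2.59, SE 0.22, adjusted p = 6.82e-05). Hoxb4 had fetal levels of 7.4, 6.61 and 8.23 and neonatal levels of 1.05, 0.697 and 0.906 CPM (log2 fold change -3.07, SE 0.25, adjusted p = 4.93e-05). Hoxb5 had fetal levels of 4.7, 4.06 and 3.83 and neonatal levels of 0.055, 0.139 and 0.0647 CPM, at least 25.2-fold lower, and Hoxb7 had fetal levels of 4.16, 4.37 and 5.31 and neonatal levels of 0, 0.139 and 0 CPM, at least 27.7-fold lower, since all neonatal libraries held at most 3 counts. Hoxb8 had fetal levels of 1.73, 1.85 and 2.23 and neonatal levels of 0, 0.0465 and 0.0647 CPM (at least 11.7-fold). The 3 fetal libraries held similar levels for these 5 genes of the B cluster. Hoxd13, a gene of the far posterior body and limb, came mostly from fetal replicate 3, with fetal levels of 1.08, 1.1 and 11.3 and neonatal levels of 0.165, 0 and 0.0647 CPM, and its call was lost without neonatal replicate 2 or 3 (adjusted p up to 0.0596).

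Among Fox, Sox and Klf factors, 7 were called higher and 4 lower of 29 (7 to 10 and 2 to 6 without 1 library). Foxs1, of perivascular cells, had fetal levels of 32.7, 30.5 and 20.6 and neonatal levels of 71.6, 70.7 and 70.95 CPM (log2 fold change 1.35, SE 0.15, adjusted p = 0.000247, against 1.17 and 7.21e-07). Klf4 had a log2 fold change of 1.97 (adjusted p = 0.00643), and Sox9, of cartilage and heart valves, 1.58 (adjusted p = 0.00638). Sox11, of embryonic progenitors, fell with a log2 fold change of -1.98 (adjusted p = 0.00627), and Foxp4 with -0.57 (adjusted p = 0.000544).

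Genes of retinoic acid signalling, which shapes the epicardium and fetal heart, had 4 called higher and 4 lower of 14 (3 to 4 and 1 to 6 without 1 library). Crabp1, a retinoic acid binding protein, had fetal levels of 1.13, 0.882 and 11 and neonatal levels of 0.11, 0.0465 and 0 CPM, at least 26.1-fold lower, or 6.06-fold without fetal replicate 3, with fetal replicate 3 the source of most of its signal (adjusted p = 0.0111). The epicardial retinoic acid synthase gene Aldh1a2 was not called (0.353).

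Of 17 genes of the glucocorticoid receptor and its targets, 3 were called higher and 1 lower. Neither count was above the share over all genes (18.3% higher and 18.0% lower), so the list as a whole did not stand out. Glucocorticoids rise before birth and drive maturation of several organs. Hsd11b1, the enzyme that turns inactive into active glucocorticoid inside cells, had fetal levels of 4.48, 4.89 and 3.56 and neonatal levels of 35.5, 35.5 and 37.6 CPM (log2 fold change 3.06, SE 0.23, adjusted p = 4.24e-05, against 2.94 and 0.000767). The target gene Tsc22d3 (GILZ) had fetal levels of 47.8, 48.8 and 40.01 and neonatal levels of 78.5, 83.04 and 83.2 CPM (log2 fold change 0.84, SE 0.13, adjusted p = 0.00139, against 0.76 and 0.000958). Klf15 had fetal levels of 4.11, 3.57 and 1.22 and neonatal levels of 9.74, 9.71 and 11.1 CPM (log2 fold change 1.77, SE 0.36, adjusted p = 0.00568, against 1.41 and 0.00035). The target Fkbp5 fell (-0.93, adjusted p = 0.0129, and up to 0.0524 without neonatal replicate 2 or 3), and Nr3c1, the receptor, was not called (0.0585). Clock genes were higher: 8 of 15 were called higher and 0 lower, with a median of 0.5 (8 and 0.47 without fetal replicate 3). The output factor gene Tef had fetal levels of 27.6, 31.1 and 25.1 and neonatal levels of 50.9, 48.2 and 48.3 CPM (log2 fold change 0.81, SE 0.085, adjusted p = 0.000187). The repressor genes Nr1d1 and Nr1d2 rose as well (1.44, adjusted p = 0.0102 and 0.74, adjusted p = 0.000882). Clock itself had a log2 fold change of 0.48 (adjusted p = 0.00135), while its partner Arntl (Bmal1) was not called (0.942). The time of lysis is not given in the labels.

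**Figure D3:**
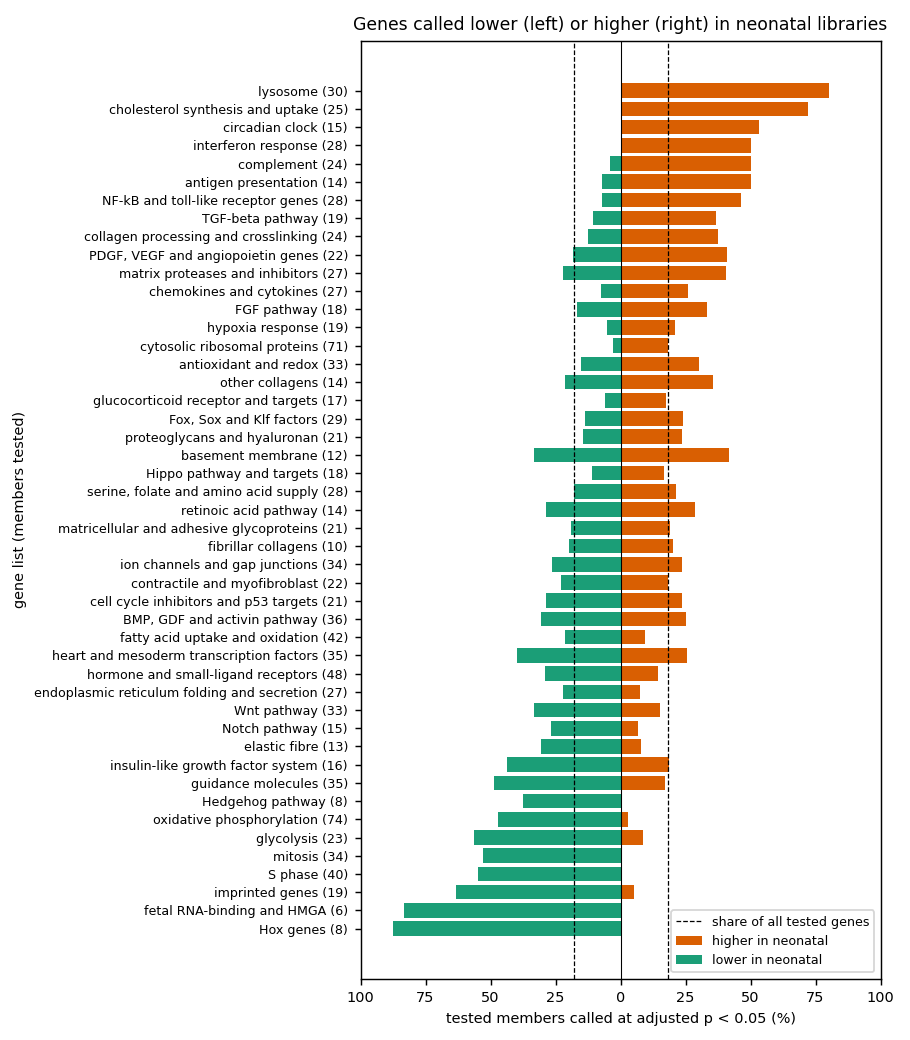
Percentage of the tested members of each gene list called higher (to the right) and lower (to the left) at the neonatal age, with dashed lines at the percentage over all tested genes. Lysosome, cholesterol, clock and interferon lists have bars to the right only, and Hox, fetal RNA-binding, S phase and mitosis lists bars to the left only.

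Of 19 genes of TGF-beta signalling, the main driver of myofibroblast formation, 7 were called higher and 2 lower (4 to 9 and 1 to 3 without 1 library). The ligand gene Tgfb3 had fetal levels of 1130, 1124 and 464 and neonatal levels of 1717, 1746 and 1739 CPM and was not called in either fit (adjusted p = 0.0739 and 0.186). The receptors moved apart. Acvrl1 (ALK1) had fetal levels of 34.6, 32.1 and 23.5 and neonatal levels of 89.7, 93.1 and 93.2 CPM (log2 fold change 1.61, SE 0.15, adjusted p = 9.1e-05, against 1.47 and 4.61e-06), Tgfbr2 a log2 fold change of 0.89 (adjusted p = 0.00047) and Tgfbr1 (ALK5) -0.48 (adjusted p = 0.0187). Acvrl1, Tgfbr2 and the co-receptor gene Eng were higher, and Tgfbr1 lower, in the neonatal libraries, the call of Tgfbr1 being lost without neonatal replicate 1 or 3 (adjusted p up to 0.0825).

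In the BMP, GDF and activin pathway 9 of 36 genes were called higher and 11 lower (6 or 7 lower without 1 neonatal library). The ligands moved apart. Bmp6 had fetal levels of 27.9, 27.6 and 16.6 and neonatal levels of 77.2, 84.7 and 86.5 CPM (log2 fold change 1.78, SE 0.18, adjusted p = 0.000191, against 1.58 and 9.51e-07). Bmp7 had fetal levels of 24.9, 27.2 and 31.8 and neonatal levels of 5.56, 4.55 and 4.6 CPM (log2 fold change -2.51, SE 0.16, adjusted p = 5.9e-05, against -2.41 and 2.32e-06). The secreted antagonist gene Grem1 had fetal levels of 363, 386 and 383 and neonatal levels of 168, 173 and 170 CPM (log2 fold change -1.15, SE 0.25, adjusted p = 0.00808). The activin antagonist Fstl3 fell too (-1.33, adjusted p = 0.000156). Chrd (chordin) rose (1.01, adjusted p = 0.00368). The BMP targets Id2 and Id3, which block differentiation factors, were higher. Id2 had fetal levels of 19.01, 19.3 and 15.9 and neonatal levels of 52.8, 55.1 and 53.2 CPM (log2 fold change 1.57, SE 0.12, adjusted p = 4.74e-05, against 1.49 and 9.38e-06), and Id3 had a log2 fold change of 0.66 (adjusted p = 0.0112).

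Of 33 Wnt pathway genes, 5 were called higher and 11 lower (2 to 5 and 9 to 13 without 1 library, 5 and 13 without fetal replicate 3). Wnt5a, a ligand that can signal without beta-catenin, had fetal levels of 47.96, 47.3 and 108 and neonatal levels of 12.8, 12.4 and 12.8 CPM (log2 fold change -2.42, SE 0.31, adjusted p = 0.000631, against -1.91 and 2.86e-08). Its receptor Ror2 had fetal levels of 184, 164 and 124 and neonatal levels of 50.6, 52.1 and 56.4 CPM (log2 fold change -1.57, SE 0.15, adjusted p = 0.000134, against -1.72 and 9.6e-07). Wnt11 had fetal levels of 4.0, 2.73 and 11.5 and neonatal levels of 0.33, 0.186 and 0.324 CPM (log2 fold change -4.43, SE 0.64, adjusted p = 0.00102, against -3.58 and 2.44e-05). Wnt16 had fetal levels of 2.16, 1.63 and 6.54 and neonatal levels of 0.055, 0.139 and 0 CPM, at least 20.7-fold lower, or 11.4-fold without fetal replicate 3. The Wnt enhancer Rspo1 (R-spondin 1) had a log2 fold change of -1.71 (adjusted p = 7.2e-05) and the nuclear effector Lef1 -2.93 (adjusted p = 0.00115). The secreted inhibitor Dkk2 had a log2 fold change of -2.24 (adjusted p = 0.00206). Fzd4, a receptor, rose from 83.5, 86.99 and 46.3 to 184, 187 and 186 CPM (1.36, adjusted p = 0.00134). In Wnt5a, Wnt11, Wnt16, Lef1 and Dkk2 fetal replicate 3 was the highest library, and each stayed called without it.

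In the FGF pathway 6 of 18 genes were called higher and 3 lower (7 and 5 without fetal replicate 3, 4 and 5 with library size alone). Fgf10, a mesenchymal ligand, had fetal levels of 2.86, 2.21 and 4.2 and neonatal levels of 9.85, 9.15 and 8.22 CPM (log2 fold change 1.56, SE 0.24, adjusted p = 0.0015). The receptor gene Fgfr3 had fetal levels of 25.8, 26.1 and 20.1 and neonatal levels of 60.9, 65.8 and 61.95 CPM (log2 fold change 1.39, SE 0.13, adjusted p = 0.000114, against 1.28 and 1.49e-05) and the feedback inhibitor Spry1 had fetal levels of 26.9, 26.1 and 22.8 and neonatal levels of 86.97, 87.2 and 92.2 CPM (log2 fold change 1.81, SE 0.19, adjusted p = 0.000236, against 1.75 and 0.00191), while the target Etv4 fell (-0.73, adjusted p = 0.00158). Of 8 Hedgehog genes, 0 were called higher and 3 lower. The receptor and target Ptch1 had fetal levels of 16.6, 17.5 and 20.1 and neonatal levels of 7.71, 8.92 and 6.73 CPM (log2 fold change -1.21, SE 0.13, adjusted p = 0.000255, against -1.12 and 5.21e-05), and the effector genes Gli2 and Gli3 a log2 fold change of -0.74 (adjusted p = 0.00418) and -0.99 (adjusted p = 0.00771). Gli1, the usual target readout, stayed at 1.06 CPM or less in all 6 libraries.

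Of 15 Notch genes, 1 was called higher and 4 lower (1 to 4 lower without 1 library); without fetal replicate 3, 3 were higher and 3 lower of 16. The target Heyl had fetal levels of 38.4, 38.98 and 16.2 and neonatal levels of 102, 95.3 and 102 CPM (log2 fold change 1.68, SE 0.38, adjusted p = 0.0106). Notch3, of mural cells, and the ligand Jag1 passed without fetal replicate 3 only: Notch3 had fetal levels of 277, 254 and 38.9 and neonatal levels of 520.1, 575 and 558 CPM (0.0641, against 0.00471). Jag1 had fetal levels of 207, 219 and 46.2 and neonatal levels of 393, 402 and 373 CPM (0.0516, against 3.59e-06). The call of Notch4 (0.0232) was lost without fetal replicate 1 (0.065) and without neonatal replicate 1 or 2 (up to 0.087).

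Growth factors for vessels and mesenchyme had 9 genes called higher and 4 lower of 22 (12 and 5 without fetal replicate 3). PDGF ligands moved apart: Pdgfb had fetal levels of 12.96, 10.8 and 15.4 and neonatal levels of 1.76, 1.63 and 2.07 CPM (log2 fold change -2.85, SE 0.28, adjusted p = 0.000135, against -2.71 and 2.41e-05). Pdgfc had fetal levels of 18.7, 18.7 and 24.01 and neonatal levels of 4.62, 5.16 and 5.24 CPM (log2 fold change -2.03, SE 0.19, adjusted p = 0.000111, against -1.9 and 5.26e-06), Pdgfa a log2 fold change of 0.72 (adjusted p = 0.00266) and Pdgfd 1.33 (adjusted p = 0.00586). Pdgfb and Pdgfc were lower, and Pdgfa, Pdgfd and the receptor Pdgfrb higher, in every neonatal library. Angpt1, a ligand that stabilises vessels, rose (1.89, adjusted p = 0.00107). Flt4, a receptor for Figf and for Vegfc, fell (-1.6, adjusted p = 0.00174) where Figf rose. Vegfa was called without fetal replicate 3 only (0.099, against 7.81e-05).

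The Hippo list had 3 called higher and 2 lower of 18 (6 and 2 without fetal replicate 3, but 1 and 7 with library size as the only scaling). With all libraries neither count was above the share over all genes (18.3% higher and 18.0% lower). The transcription factor Tead2 of fetal tissue had fetal levels of 75.7, 77.5 and 93.3 and neonatal levels of 44.2, 47.7 and 45.4 CPM (log2 fold change -0.84, SE 0.097, adjusted p = 0.000307, against -0.74 and 1.85e-05), the kinase gene Lats2 a log2 fold change of 0.41 (adjusted p = 0.00276), and Yap1 was not called (0.124). Of 35 guidance molecules, which steer axons and vessels, 6 were called higher and 17 lower (10 and 17 without fetal replicate 3, and 9 to 11 lower without 1 neonatal library). Efnb2 (ephrin B2) had fetal levels of 69.1, 73.6 and 65.4 and neonatal levels of 24.4, 26.6 and 23.04 CPM (log2 fold change -1.49, SE 0.089, adjusted p = 1.09e-05, against -1.53 and 2.48e-07), and the netrin receptor Unc5c had fetal levels of 44.9, 43.9 and 51.8 and neonatal levels of 15.9, 15.7 and 16.6 CPM (log2 fold change -1.54, SE 0.12, adjusted p = 3.85e-05, against -1.47 and 1.27e-06). Bdnf, a neurotrophin also made by heart cells, had fetal levels of 34.6, 32.9 and 27.8 and neonatal levels of 8.15, 8.27 and 7.64 CPM (log2 fold change -1.98, SE 0.13, adjusted p = 1.62e-05, against -2.07 and 1.66e-07). Sema3e had a log2 fold change of -1.78 (adjusted p = 9.49e-05) and the ephrin receptor Epha2 -1.14 (adjusted p = 0.000569). Their fetal libraries, replicate 3 included, lay together and did not overlap the neonatal ones. Ntn4 (netrin 4) and Unc5b went up (1.31, adjusted p = 0.00966 and 0.86, adjusted p = 0.0116).

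In the innate immune lists more genes were called higher than lower at the neonatal age. Interferon response genes had 14 called higher and 0 lower of 28, with a median of 0.91 (16 higher and 0.86 without fetal replicate 3, and 0.88 where genes at or under 3 counts in a group are taken at their bound). Ifi27 had fetal levels of 88.1, 80.4 and 65.8 and neonatal levels of 207, 197 and 198 CPM (log2 fold change 1.36, SE 0.12, adjusted p = 8.79e-05, against 1.25 and 6.93e-06). Ifi44 had a log2 fold change of 1.51 (adjusted p = 0.000164), and Parp9 1.08 (adjusted p = 0.000164). Transcription factors of the pathway rose as well: Stat2 had a log2 fold change of 0.87 (adjusted p = 0.000327) and Irf9 0.61 (adjusted p = 0.00107). Irf7 had fetal levels of 3.4, 3.13 and 4.04 and neonatal levels of 8.86, 7.95 and 8.87 CPM (log2 fold change 1.28, SE 0.15, adjusted p = 0.00037). In each of these genes the 3 fetal libraries lay together below the neonatal ones. Summed CPM of the list was 391, 388 and 321 in the fetal and 790, 772 and 753 in the neonatal libraries.

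Antigen presentation genes of class I moved in the same direction, 7 called higher and 1 lower of 14. B2m, the light chain of class I molecules, had fetal levels of 337, 325 and 328 and neonatal levels of 731, 705 and 709.8 CPM (log2 fold change 1.12, SE 0.097, adjusted p = 7.19e-05, against 1.11 and 8.52e-06), and RT1-A2, a rat class I heavy chain of a multigene family whose copies can share reads, had fetal levels of 13.7, 11.2 and 14.6 and neonatal levels of 31.6, 30.6 and 29.4 CPM (log2 fold change 1.22, SE 0.11, adjusted p = 7.01e-05, against 1.3 and 2.95e-06). The immunoproteasome subunits Psmb8 and Psmb9 had a log2 fold change of 1.6 (adjusted p = 0.000594) and 1.44 (adjusted p = 8.51e-05). The class II genes Cd74 and RT1-Da stayed at 1.22 CPM or less.

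Complement genes had 12 called higher and 1 lower of 24, with a median of 0.96, or 0.62 with floor genes at their bound. The list's summed level nevertheless fell, from 1339, 1340 and 1557 CPM in the fetal to 932, 931 and 952 CPM in the neonatal libraries. The proteases of the first component, which fibroblasts secrete, were among them: C1r had fetal levels of 105, 103 and 91.4 and neonatal levels of 420.4, 419 and 427 CPM (log2 fold change 2.08, SE 0.26, adjusted p = 0.000516, against 2.02 and 0.00727). C1s had fetal levels of 14.1, 15.3 and 10.8 and neonatal levels of 71.9, 75.8 and 74.5 CPM (log2 fold change 2.46, SE 0.31, adjusted p = 0.000613, against 2.33 and 0.00907). Their inhibitor Serping1 had fetal levels of 3.94, 3.4 and 4.57 and neonatal levels of 18.5, 18.3 and 18.97 CPM (log2 fold change 2.23, SE 0.38, adjusted p = 0.00265, against 2.35 and 0.0314). The 3 fetal libraries lay close together and below the neonatal ones for these genes. Clu (clusterin), an inhibitor of the terminal complex, fell from 1043, 1035 and 1287 to 163, 172 and 184 CPM (log2 fold change -2.7, SE 0.42, adjusted p = 0.00179, against -2.58 and 0.0143).

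Genes of NF-kB and toll-like receptor signalling had 13 called higher and 2 lower of 28 (14 and 1 without fetal replicate 3). Icam1, a leukocyte adhesion molecule, had a log2 fold change of 1.19 (adjusted p = 0.000455), and Tnfaip2 had fetal levels of 36.1, 37.6 and 38.3 and neonatal levels of 106, 113 and 108 CPM (log2 fold change 1.54, SE 0.11, adjusted p = 2.77e-05, against 1.56 and 1.88e-05). Irak3, which restrains toll-like receptors, had fetal levels of 9.51, 9.17 and 8.45 and neonatal levels of 40.5, 37.3 and 42.1 CPM (log2 fold change 2.14, SE 0.17, adjusted p = 4.74e-05, against 2.1 and 0.000206). Tlr4, the endotoxin receptor, had a log2 fold change of 1.83 (adjusted p = 0.00214). Ptgs2, the inducible cyclooxygenase, fell, with fetal levels of 41.8, 50.4 and 88.3 and neonatal levels of 5.12, 6.46 and 5.18 CPM (log2 fold change -3.42, SE 0.62, adjusted p = 0.00367, against -3.03 and 0.0206). Of 27 chemokine and cytokine genes, 7 were called higher and 2 lower. The median of 0.76 becomes 0 with the 4 floor genes at their bound. The list's summed level was 759, 762 and 538 CPM in the fetal and 643, 653 and 648 CPM in the neonatal libraries. Csf1, the ligand of Csf1r, had fetal levels of 62.98, 66.05 and 85.7 and neonatal levels of 192, 196 and 192 CPM (log2 fold change 1.43, SE 0.26, adjusted p = 0.00355, against 1.58 and 0.0145). The monocyte chemokine Ccl7 had a log2 fold change of 2.03 (adjusted p = 0.00987), and the alarmin Il33 fell (-1.97, adjusted p = 0.00477). Macrophage markers rose in the same libraries, and their part in these immune lists was not tested.

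Genes of glycolysis and of oxidative phosphorylation were more often called lower than higher. Glycolysis genes had 2 called higher and 13 lower of 23, with a median of -0.33 (13 lower without fetal replicate 3, 0 higher and 15 lower with library size alone). Slc16a3, the lactate exporter MCT4, had fetal levels of 61.3, 65.5 and 65.3 and neonatal levels of 23.9, 26.8 and 26.5 CPM (log2 fold change -1.31, SE 0.088, adjusted p = 1.9e-05, against -1.3 and 1.21e-06). The glucose transporter Slc2a1 had fetal levels of 106, 98.9 and 104 and neonatal levels of 61.5, 71.8 and 63.95 CPM (log2 fold change -0.65, SE 0.1, adjusted p = 0.0018), hexokinase 2, Hk2, a log2 fold change of -0.64 (adjusted p = 0.00513) and lactate dehydrogenase A, Ldha, -0.33 (adjusted p = 0.00317). Pfkl, liver phosphofructokinase, fell (-0.48, adjusted p = 0.00142) and Pfkp, the platelet form, rose (0.37, adjusted p = 0.00134), the rise being lost with library size as the only scaling (0.059). Rows of Gapdh and Pkm held 39.5 to 69.3 CPM and are uncertain, since near-identical copies can share their reads. Their calls (0.0357 and 0.0454) were lost without fetal replicate 3 or any 1 neonatal library (up to 0.124 and 0.149), and that of Gapdh also without fetal replicate 1.

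Oxidative phosphorylation genes had 2 called higher and 35 lower of 74, with a median of -0.23 (46 lower and -0.27 without fetal replicate 3, 60 lower with library size alone, and 20 and 22 lower without neonatal replicates 2 and 3). Uqcrh, of complex III, had fetal levels of 237, 239.7 and 243 and neonatal levels of 165, 155 and 148 CPM (log2 fold change -0.62, SE 0.064, adjusted p = 0.000164, against -0.61 and 1.67e-05). Cyc1, cytochrome c1, had a log2 fold change of -0.45 (adjusted p = 0.00103). Cox6a2, the heart and muscle form of a complex IV subunit, had fetal levels of 130.3, 128 and 98.5 and neonatal levels of 66.6, 66.1 and 67.8 CPM (log2 fold change -0.83, SE 0.12, adjusted p = 0.00105), whereas the assembly factor Cox7a2l rose (0.58, adjusted p = 0.00156). In fatty acid use 4 genes were called higher and 9 lower of 42 (3 to 7 and 5 to 12 without 1 library). Fabp3, the heart fatty acid binding protein, had fetal levels of 339.7, 327 and 234 and neonatal levels of 135, 129 and 130.5 CPM (log2 fold change -1.19, SE 0.16, adjusted p = 0.000832, against -1.34 and 4.33e-05). Ucp2, a mitochondrial carrier, had fetal levels of 214, 206 and 189 and neonatal levels of 105, 104 and 98 CPM (log2 fold change -0.99, SE 0.081, adjusted p = 5.38e-05, against -1.03 and 1.33e-06). Oxct1, needed to burn ketone bodies, had a log2 fold change of -0.54 (adjusted p = 0.000181). Cox6a2 and Fabp3 are abundant in cardiomyocytes, whose markers fell in the same libraries; that share was not tested.

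Of 19 hypoxia response genes, 4 were called higher and 1 lower (2 to 5 and 1 to 2 without 1 library), with a median of 0.15 (2 and 2, and -0.003, with library size alone). Epas1, the hypoxia-inducible factor HIF-2 alpha, had fetal levels of 27.3, 27.03 and 14.9 and neonatal levels of 151, 158 and 150.4 CPM (log2 fold change 2.73, SE 0.2, adjusted p = 3.9e-05, against 2.5 and 2.49e-09). Adm (adrenomedullin) had fetal levels of 50.8, 46.2 and 30.4 and neonatal levels of 89, 93.7 and 93.1 CPM (log2 fold change 1.11, SE 0.33, adjusted p = 0.0293, and 0.145 without fetal replicate 3 and up to 0.0766 without fetal replicate 2 or any 1 neonatal library). Vegfa, the vessel growth factor, and the hypoxia-regulated genes Egln3 and Ndrg1 were not called (adjusted p = 0.099, 0.139 and 0.338).

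Lysosomal genes moved in a single direction. Of 30, 24 were called higher and 0 lower, against 18.3% and 18.0% of all genes, with a median of 0.72 (23 higher and 0.61 without fetal replicate 3, and 0.67 with floor genes at their bound). Their summed level was 5575, 5597 and 4219 CPM in the fetal and 9151, 9128 and 9155 CPM in the neonatal libraries, with fetal replicate 3 the lowest. Promoters of 3 of them are shown because they hold the palindrome TCACGTGA, the core of the CLEAR element that the lysosomal regulators TFEB and TFE3 bind. It was found on either strand in the 250 bases before the start of 3 of 22 lysosomal genes with a RefSeq promoter (13.6%), against 0.657% of all 33469. The shorter E-box CACGTG, which the palindrome contains, was in 6 of 22 (27.3%), against 5.59%. All promoters include those of untested genes, so these shares are not like for like. The core is in capitals in 120 bases before the start, 5′ to 3′, in assembly GRCr8.
Lamp1 (chr16:83075064-83075183, minus strand): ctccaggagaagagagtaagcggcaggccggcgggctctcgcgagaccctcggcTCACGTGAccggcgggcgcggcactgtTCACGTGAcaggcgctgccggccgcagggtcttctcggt
Ctsd (chr1:206968822-206968941, minus strand): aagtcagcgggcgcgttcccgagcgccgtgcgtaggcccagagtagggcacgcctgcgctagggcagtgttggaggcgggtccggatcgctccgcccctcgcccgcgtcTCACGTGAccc
Atp6v0d1 (chr19:50357249-50357368, minus strand): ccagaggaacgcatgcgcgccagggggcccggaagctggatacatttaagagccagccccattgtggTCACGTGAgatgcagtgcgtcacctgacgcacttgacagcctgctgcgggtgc

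Lamp1, the major protein of the lysosomal membrane, had fetal levels of 534, 537 and 441 and neonatal levels of 885, 892 and 900.5 CPM (log2 fold change 0.82, SE 0.091, adjusted p = 0.000246, against 0.74 and 2.91e-06). Ctsd (cathepsin D), an aspartic protease, had fetal levels of 410.4, 408 and 285 and neonatal levels of 791, 792 and 816 CPM (log2 fold change 1.12, SE 0.13, adjusted p = 0.000352, against 0.97 and 1.66e-07). Atp6v0d1, a subunit of the proton pump, had fetal levels of 217, 211 and 172 and neonatal levels of 245, 238 and 246 CPM (log2 fold change 0.28, SE 0.088, adjusted p = 0.0338). Ctsk (cathepsin K), a collagen-degrading protease, had fetal levels of 26.5, 21.5 and 15.2 and neonatal levels of 87.4, 80.7 and 87 CPM (log2 fold change 2.01, SE 0.16, adjusted p = 5.38e-05, against 1.83 and 1.43e-07). Ctsl had a log2 fold change of 1.0 (adjusted p = 0.000666), Ctsb 0.52 (adjusted p = 0.000616), and the cholesterol exporter Npc2 0.76 (adjusted p = 0.000525). Psap (prosaposin), an activator of lipid hydrolases, had a log2 fold change of 1.08 (adjusted p = 0.00165). The neonatal libraries lay above all fetal ones for these 8 genes. The call of Atp6v0d1 was lost with library size as the only scaling (0.201) and without any 1 neonatal library (up to 0.0929). Ctss (cathepsin S), a macrophage protease, was low and intermediate in fetal replicate 3 (fetal levels of 0.486, 0.838 and 2.6 and neonatal levels of 7.32, 7.06 and 9.0 CPM; log2 fold change 2.58, SE 0.39, adjusted p = 0.00158). Macrophages are rich in lysosomes and their markers rose in the same libraries, with sums of 195, 177 and 178 CPM at the neonatal age; their part in the lysosomal rise was not tested.

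Cholesterol synthesis and uptake genes also had a single direction: 18 of 25 were called higher and 0 lower, with a median of 0.36 (20 higher and 0.43 without fetal replicate 3, but 8 higher and 0.19 with library size as the only scaling). Sqle, squalene epoxidase, had a log2 fold change of 0.55 (adjusted p = 0.000733), and Nsdhl, a sterol dehydrogenase, had fetal levels of 69.9, 69.3 and 66.4 and neonatal levels of 114, 121 and 114 CPM (log2 fold change 0.76, SE 0.07, adjusted p = 9.1e-05, against 0.74 and 1.38e-05). Dhcr7, the last enzyme of the pathway, had fetal levels of 45.9, 41.9 and 41.5 and neonatal levels of 72.2, 74.8 and 70.3 CPM (log2 fold change 0.75, SE 0.066, adjusted p = 7.26e-05, against 0.73 and 1.04e-05). Hsd17b7 had a log2 fold change of 0.69 (adjusted p = 0.0116). The sterol sensor partner Insig1 had a log2 fold change of 0.8 (adjusted p = 0.0071). Fetal replicate 3 lay next to fetal replicates 1 and 2 for Sqle, Nsdhl and Dhcr7.

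Promoters of 2 of these genes are shown because most promoters of the list hold the CCAAT box, bound by the factor NF-Y that acts beside the sterol regulator SREBP-2. The letters CCAAT were present on either strand in 14 of 17 promoters (82.4%), against 34% of all, and in 22 of 27 mitosis genes (81.5%). Here too the promoters of untested genes are among all promoters, so the shares are not like for like. The sterol element letters TCACNCCAC were in 0 of the 17, against 0.974% of all, which says only that these letters are not in the window. CCAAT, or ATTGG where it lies on the other strand, is in capitals in the 250 bases (Nsdhl) and 200 bases (Hsd17b7) before the start, 5′ to 3′.
Nsdhl (chrX:155817110-155817359, plus strand): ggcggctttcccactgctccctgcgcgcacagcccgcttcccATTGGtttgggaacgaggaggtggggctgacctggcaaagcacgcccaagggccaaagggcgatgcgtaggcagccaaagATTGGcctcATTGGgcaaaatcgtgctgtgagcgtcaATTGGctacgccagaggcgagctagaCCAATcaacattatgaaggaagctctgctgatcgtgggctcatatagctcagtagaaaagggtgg
Hsd17b7 (chr13:84722755-84722954, minus strand): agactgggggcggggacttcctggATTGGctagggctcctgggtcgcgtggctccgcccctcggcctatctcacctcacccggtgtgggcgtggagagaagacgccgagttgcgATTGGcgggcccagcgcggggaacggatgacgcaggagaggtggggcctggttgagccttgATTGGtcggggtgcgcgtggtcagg

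**Figure D4:**
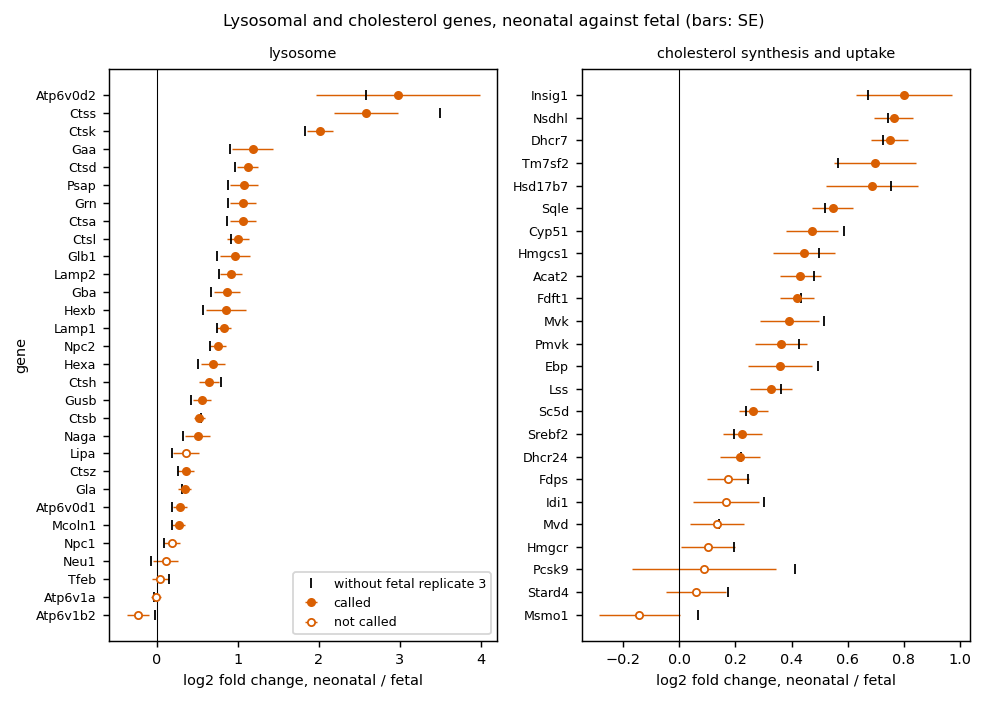
Log2 fold changes with their standard errors for members of the lysosome and cholesterol lists, neonatal minus fetal, with and without fetal replicate 3. The called members drawn, as filled points, lie to the right of 0, and the lysosomal changes are mostly larger than the cholesterol ones (list medians 0.72 and 0.36).

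Genes of serine, folate and amino acid supply had 6 called higher and 5 lower of 28 (3 to 6 and 2 to 5 without 1 library, 5 and 7 with library size alone). The glutamine transporter Slc38a1 had fetal levels of 76.4, 76.4 and 72.7 and neonatal levels of 28.5, 30.3 and 24.6 CPM (log2 fold change -1.43, SE 0.13, adjusted p = 9.05e-05, against -1.46 and 6.35e-06), whereas its relative Slc38a2 rose (0.4, adjusted p = 0.00224). Antioxidant genes had 10 called higher and 5 lower of 33 (7 to 11 and 1 to 6 without 1 library, 8 and 11 with library size alone). Sod3, the extracellular superoxide dismutase, had fetal levels of 47.04, 42.9 and 19.4 and neonatal levels of 199.7, 216 and 204 CPM (log2 fold change 2.5, SE 0.28, adjusted p = 0.000322, against 2.2 and 1.91e-08). Mgst1, a membrane glutathione transferase, had fetal levels of 3.83, 3.48 and 2.66 and neonatal levels of 15.2, 18.1 and 15.9 CPM (log2 fold change 2.3, SE 0.23, adjusted p = 0.00014, against 2.17 and 0.000332). Genes of protein folding in the endoplasmic reticulum had 2 called higher and 6 lower of 27 (2 and 15 with library size as the only scaling), led by Sdf2l1 (-0.52, adjusted p = 0.00232) and Manf (-0.36, adjusted p = 0.00242), while the chaperone Hspa5 was not called with fetal replicate 3 (0.0586, against 0.0303). Cytosolic ribosomal protein genes had 13 called higher and 2 lower of 71 (5 to 25 and 0 to 3 without 1 library, 2 and 5 with library size alone), with a median of 0.12 that becomes -0.052 with library size alone. Many have processed copies that can share reads. Their count called higher was near the share over all genes (18.3%). The same held for both counts of the amino acid list (18.3% higher and 18.0% lower over all genes). Library size alone also turned the sign of the medians of the proteoglycan (-0.16), contractile (-0.11), Hippo (-0.037), fatty acid (-0.15), amino acid (-0.039) and antioxidant (-0.11) lists.

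Ion channel and gap junction genes had 8 called higher and 9 lower of 34 (5 to 7 and 7 to 11 without 1 library). Ano1, a calcium-activated chloride channel, had fetal levels of 47.3, 46.1 and 54.3 and neonatal levels of 5.12, 5.21 and 5.89 CPM (log2 fold change -3.19, SE 0.13, adjusted p = 2.04e-06, against -3.11 and 1.85e-08). Gja1 (connexin 43), the main gap junction protein of the heart's working cells, had fetal levels of 402, 405 and 409 and neonatal levels of 93.6, 93.6 and 100.1 CPM (log2 fold change -2.08, SE 0.19, adjusted p = 0.00011, against -2.08 and 0.000555). Cacna1c, the L-type calcium channel, had a log2 fold change of -1.03 (adjusted p = 0.000247). The calcium-permeable channel Trpv2 rose, with fetal levels of 8.37, 8.29 and 9.4 and neonatal levels of 27.7, 27.4 and 24.7 CPM (log2 fold change 1.61, SE 0.082, adjusted p = 5.37e-06, against 1.68 and 1.03e-07), as did Kcne4 (2.09, adjusted p = 0.00239). Cacna1c and Gja1 are also cardiomyocyte genes. Their changes were -1.03 and -2.08 on the log2 scale, beside a median of -1.03 for cardiomyocyte markers; the share from those cells was not tested.

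Receptors for hormones and small ligands, with the enzymes that make prostaglandins, had 7 called higher and 14 lower of 48 (7 and 18 without fetal replicate 3). F2rl1, a receptor switched on by proteases, had fetal levels of 31.8, 31.4 and 36.5 and neonatal levels of 1.65, 2.09 and 3.11 CPM (log2 fold change -3.87, SE 0.2, adjusted p = 6.48e-06, against -3.81 and 9.46e-08), and the bradykinin receptor Bdkrb2 had fetal levels of 12.4, 13.5 and 17.4 and neonatal levels of 1.6, 1.49 and 2.07 CPM (log2 fold change -3.08, SE 0.21, adjusted p = 2e-05, against -2.93 and 6.03e-07). Both were low in all neonatal libraries. The sphingosine phosphate receptors split: S1pr1 had a log2 fold change of -1.06 (adjusted p = 0.00026) and S1pr3 -0.72 (adjusted p = 0.00137), both lower, and S1pr2 0.68 (adjusted p = 0.000838), higher. The cyclooxygenase Ptgs1 had fetal levels of 39.2, 40.03 and 159 and neonatal levels of 6.71, 7.43 and 7.38 CPM (log2 fold change -3.46, SE 0.56, adjusted p = 0.00207, against -2.46 and 2.98e-08) and the prostacyclin synthase Ptgis a log2 fold change of -1.33 (adjusted p = 0.00175). The receptors Ednra, for endothelin, and Ptgfr, for prostaglandin F, were lower (-0.76, adjusted p = 0.00428 and -0.96, adjusted p = 0.00752).

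**Figure D5:**
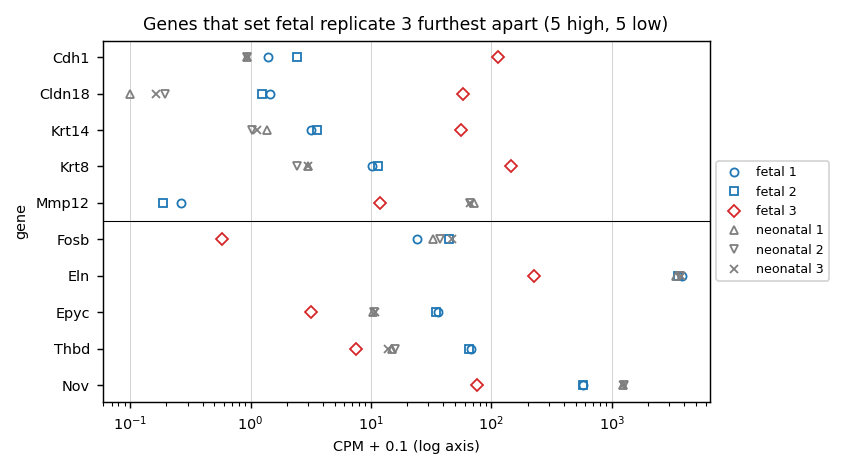
CPM plus 0.1 on a log axis of the 5 genes highest and the 5 lowest in fetal replicate 3 relative to fetal replicates 1 and 2, 1 point per library. Fetal replicate 3 lies far from the other fetal libraries in all 10 genes, while neonatal libraries lie together.

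Among the tested genes, fetal replicate 3 itself differed from both other fetal libraries by at least 2-fold (on CPM plus 1) upward for 308 genes and downward for 271. The highest ratios were in Cdh1, Cldn18, Krt14, Krt8 and Mmp12. The lowest were in Fosb, Eln, Epyc, Thbd and Nov. Fosb, an immediate early gene, had fetal levels of 23.9, 44.3 and 0.478 and neonatal levels of 32.4, 37.6 and 46.6 CPM, and Thbd (thrombomodulin) had fetal levels of 68.2, 65.3 and 7.38 and neonatal levels of 14.8, 15.8 and 13.7 CPM. Epyc (epiphycan), a small proteoglycan, had fetal levels of 35.6, 34.3 and 3.08 and neonatal levels of 10.2, 10.5 and 10.8 CPM. For Epyc and Thbd the neonatal libraries lay between fetal replicate 3 and fetal replicates 1 and 2, and both were called lower without fetal replicate 3 only (adjusted p = 0.191 and 0.0734, against 8.65e-06 and 7e-05). These 10 genes were picked by that ratio, so the values describe the library and test nothing. Fetal replicate 3 had a scaling factor of 1.16, the highest of the 6, and its 10 most abundant genes took 7.75% of its counts, against 12.6% and 12.7% in the other fetal and 15.4% to 16.0% in the neonatal libraries.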

How the data were processed

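RNA-seq libraries of 3 fetal, 3 neonatal and 3 adult cultures were analysed from the table of gene counts that the authors deposited. Per the file headers, reads per gene were counted with featureCounts 1.6.3 against an rn6 annotation with default settings that ignore strand, so overlapping and antisense genes cannot be told apart, and genes with near-identical copies (ribosomal proteins, Gapdh, Pkm, RT1 genes) are uncertain. The submitters' processing notes name FastQC, Trimmomatic 0.39, STAR 2.5.2b, Subread 1.6.3 and DESeq2. Libraries were grouped by labelled age.

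Genes were kept by edgeR's filterByExpr, scaled by TMM (trimmed mean of M-values) and tested by edgeR 4.0.16 (R 4.3.3) with the robust quasi-likelihood test over all 9 libraries with age as the only term, two-sided, with Benjamini-Hochberg adjustment over all tested genes at 0.05. The fit without fetal replicate 3 repeated the filter. CPM are counts per library size times the TMM factor, times 1000000. Log2 levels for distances used a prior count of 2. A group with at most 3 counts in each library was at the floor, and its fold is a bound from a mean of 3 counts in each library. The SE comes from the quasi-likelihood test and so covers the spread between libraries, while the floor is a fixed cut-off in counts. The analysis was tested on simulated counts.

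The members and gene lists were chosen with earlier results of these data known. Named were, among genes also called without fetal replicate 3, the 10 largest changes in each direction (at least 10 CPM in the higher age, no overlap) and the 5 most abundant in each direction, the 3 smallest adjusted p of each list, the fibroblast markers, and the 10 genes by which fetal replicate 3 departs most. Some were left out for length, and some genes are not reported here, though they stay in the fits and counts. Other members were named after their values were seen, as examples of their list. Lists are described by counts, to be read against the share over all genes (18.3% higher and 18.0% lower). They got no test of their own. Gene names of the table, 17337 in all, were matched to RefSeq (GRCr8) by current symbol (14821) or older synonym (2098), and promoters were taken from there. Alternatives were DESeq2 1.42.0, other scalings, filters and sets of libraries, limma 3.58.1 voom weights, a replicate block and each library left out in turn.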

Additional observations from a re-analysis of the deposited data

How the results depend on the processing

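The number of genes called (4114) ranged from 2476 to 4679 when 1 library at a time was left out, with 1386 to 2419 higher and 1090 to 2260 lower. The lowest counts came without a neonatal library (2607, 2476 and 2575 without neonatal replicates 1, 2 and 3), the highest without fetal replicate 3. With voom quality weights, which gave fetal replicate 3 a weight of 0.0867, 6330 genes were called, 3199 higher and 3131 lower. In the 5 libraries alone, without adults and fetal replicate 3, 6579 were called, 3306 higher and 3273 lower. With library size alone 1360 were higher and 3325 lower, and with a change of at least 1 on the log2 scale required, 1272 (657 higher and 615 lower). DESeq2 called 4553. The cause of these differences was not tested.

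Of the 308 named genes that were called, 284 to 285 kept their call and direction without 1 neonatal library and 300 to 303 without 1 fetal library. Under every alternative 277 kept it. Most of these genes were picked for a small adjusted p or a call in both fits. Their counts therefore do not describe how stable the calls of all genes are. Genes that lost their call without 1 library and are named in the report have this stated beside their results. Direction turned for Dcn, Fn1 and Lum, not called with all libraries, without fetal replicate 3 (-0.17, -0.099 and -0.32), with voom weights (-0.12, -0.053 and -0.27) and in the 5 libraries alone (-0.18, -0.10 and -0.32), and for Lum with library size alone (-0.064). For Adgre1, whose value was -0.10, direction turned in the 5 libraries alone (1.09), with voom weights (1.04) and without fetal replicate 3 (1.09); leaving out 1 library gave it -0.50 to 1.09.

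Libraries with the same replicate number did not deviate together from their group means (correlations -0.065, 0.052 and -0.023 for numbers 1, 2 and 3). The labels do not pair the numbers, so they were used only to name libraries. These correlations cannot exclude a shared litter or preparation. A fit with the replicate block called 3713 genes, 1948 higher and 1765 lower. Depth limits genes near the floor: 3 counts were 0.151 CPM over the fetal and 0.166 CPM over the neonatal libraries.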
